A study of Homo sapiens with 6 samples.

Results

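The genes described here are DNA repair, homologous recombination and checkpoint genes of U-87 MG cells, an established human glioblastoma line. They were taken by symbol: families starting with FANC, BRCA, XRCC, ERCC, MSH, MLH or RECQL, PARP1, PARP2, RAD followed by a digit (without RAD21), and a short set of single genes such as BRIP1, PALB2, BARD1, ATR, CHEK1, CHEK2, EXO1 and NBN. Of the 14884 gene symbols on the array 41 met this rule, and each was read by 1 probe set, its brightest on average across the 6 arrays. There were 3 arrays of exposed cells and 3 arrays of unexposed cells, each called a biological replicate in the labels, which do not say whether the replicates were grown at separate times. Exposed cells received electromagnetic fields aimed at miR-381, a mutated alpha-kinase 2 gene, HSP70 and CHI3L1 for 54 h without a break, in a culture box within a Faraday chamber. Unexposed cells stayed in a box outside it for that time, and all dishes had been allocated at random 24 h after seeding. Field and box therefore cannot be told apart in any difference given here. All cells were the same line in the same medium, with no drug or genetic change named in the labels.

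The symbol rule reached the Fanconi pathway mainly through its recombination arm. BRIP1, PALB2, RAD51C and XRCC2 are the Fanconi genes FANCJ, FANCN, FANCO and FANCU under other names, whereas the core ubiquitin ligase subunits and their monoubiquitinated substrate pair were not analysed here. The symbol starting with FANC was FANCD2OS, an opposite-strand gene, and the symbol starting with ERCC was ERCC6L2-AS1, an antisense RNA. MSH5-SAPCD1 names a readthrough transcript of MSH5 and its neighbour, and RAD54L2 is a chromatin remodeller related in sequence to RAD54 and known for binding the androgen receptor. The remaining 37 members were repair or checkpoint genes.

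In the Fanconi pathway a ubiquitin ligase marks a protein pair at crosslinked DNA, nucleases open the lesion, and homologous recombination rebuilds the broken strand. Recombination resects the broken end and copies the sister chromatid, so many of its genes are used and transcribed chiefly in S and G2 phases. Mismatch repair corrects replication errors, end joining by the Ku proteins works throughout the cycle, and the ATR kinase with its clamp and effector kinases slows the cycle at damaged forks. In glioblastoma these pathways are studied because radiation and alkylating drugs act through DNA damage.

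All values are on the log2 scale made by RMA, which subtracts background, equalises the arrays and merges probes into 1 value per probe set. Array medians lay between 3.96 and 3.99, and correlations within a group over all probe sets were 0.985 to 0.988. Unexposed replicate 2 lay farthest from the others on the first principal component, with a score of -47.2 against -22.2 and -15.3 for the other unexposed arrays. Of the 7 markers of U-87 MG and mesenchymal glioma 6 were measured, and these had means between 6.79 (NES) and 11.9 (FN1) in exposed cells. Of the 3 astrocyte markers measured, AQP4 and S100B lay below the array medians, at 3.02 and 3.26 in exposed cells and 2.89 and 3.68 in unexposed cells. GFAP lay above them, at 5.21 in exposed cells and 4.86 in unexposed cells. GFAP was higher and S100B lower in every exposed array (0.35 and -0.42), and neither passed.

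The recombination genes BRIP1 and XRCC2 and the damage-tolerance gene RAD18 were called lower in exposed cells. No member was called higher, where 1.40% of all 14884 genes were. Of the 41 members 4 fell: BRIP1, RAD18, XRCC2 and RAD54L2, where 1.67% of all 14884 genes fell by the same rule (limma with Benjamini-Hochberg adjustment over all genes, adjusted p under 0.05) and 3.06% changed in either direction. That is 9.76% of the members, and 8.11% of the 37 repair and checkpoint genes proper, of which 3 fell. In 14 members every exposed array lay below every unexposed array, or 34.1% against 13.8% of all genes, and in 0 members every exposed array lay above, where all genes gave 13.2%. By the same calls, 10.8% of the 37 members above the median of all probe sets fell, against 2.32% of the 10678 genes above it. In 37.8% of these members every exposed array lay below every unexposed array, against 17.5% of these genes. The median log2 change was -0.09 over the members and 0.0029 over all genes, and 28 members had negative values (68.3%, against 49.3% of all genes). An unadjusted p under 0.05 was reached by 12 members downward and 0 upward, where 10.2% and 8.71% of all genes reached it. Fitted with an untrended prior variance or with unmoderated variances, limma called 0 members, with 12 at an unadjusted p under 0.05 downward in each. Of all 14884 genes it called 0 and 4 in those fits, with 2220 and 2649 at an unadjusted p under 0.05 in either direction. Scaled to ribosomal protein genes, 2 members fell (BRIP1 and RAD18), with a member median of -0.015 where that of all genes was 0.082, and 308 of all genes were called in either direction, against 456 before. Adjusted over all probe sets, BRIP1 alone of the members fell, and 162 of all genes were called. These shares describe the members as chosen and carry no test of the set. In bulk RNA, fewer cells in a cell cycle phase and less RNA per cell cannot be told apart. Of the 5 proliferation markers 3 fell (MKI67, TOP2A and CDK1), and the mean over all 5 was 8.84 to 9.06 in exposed arrays, against 9.27 to 9.53 in unexposed arrays. The part of proliferation in the changes of the repair genes was not tested.

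**Figure D1:**
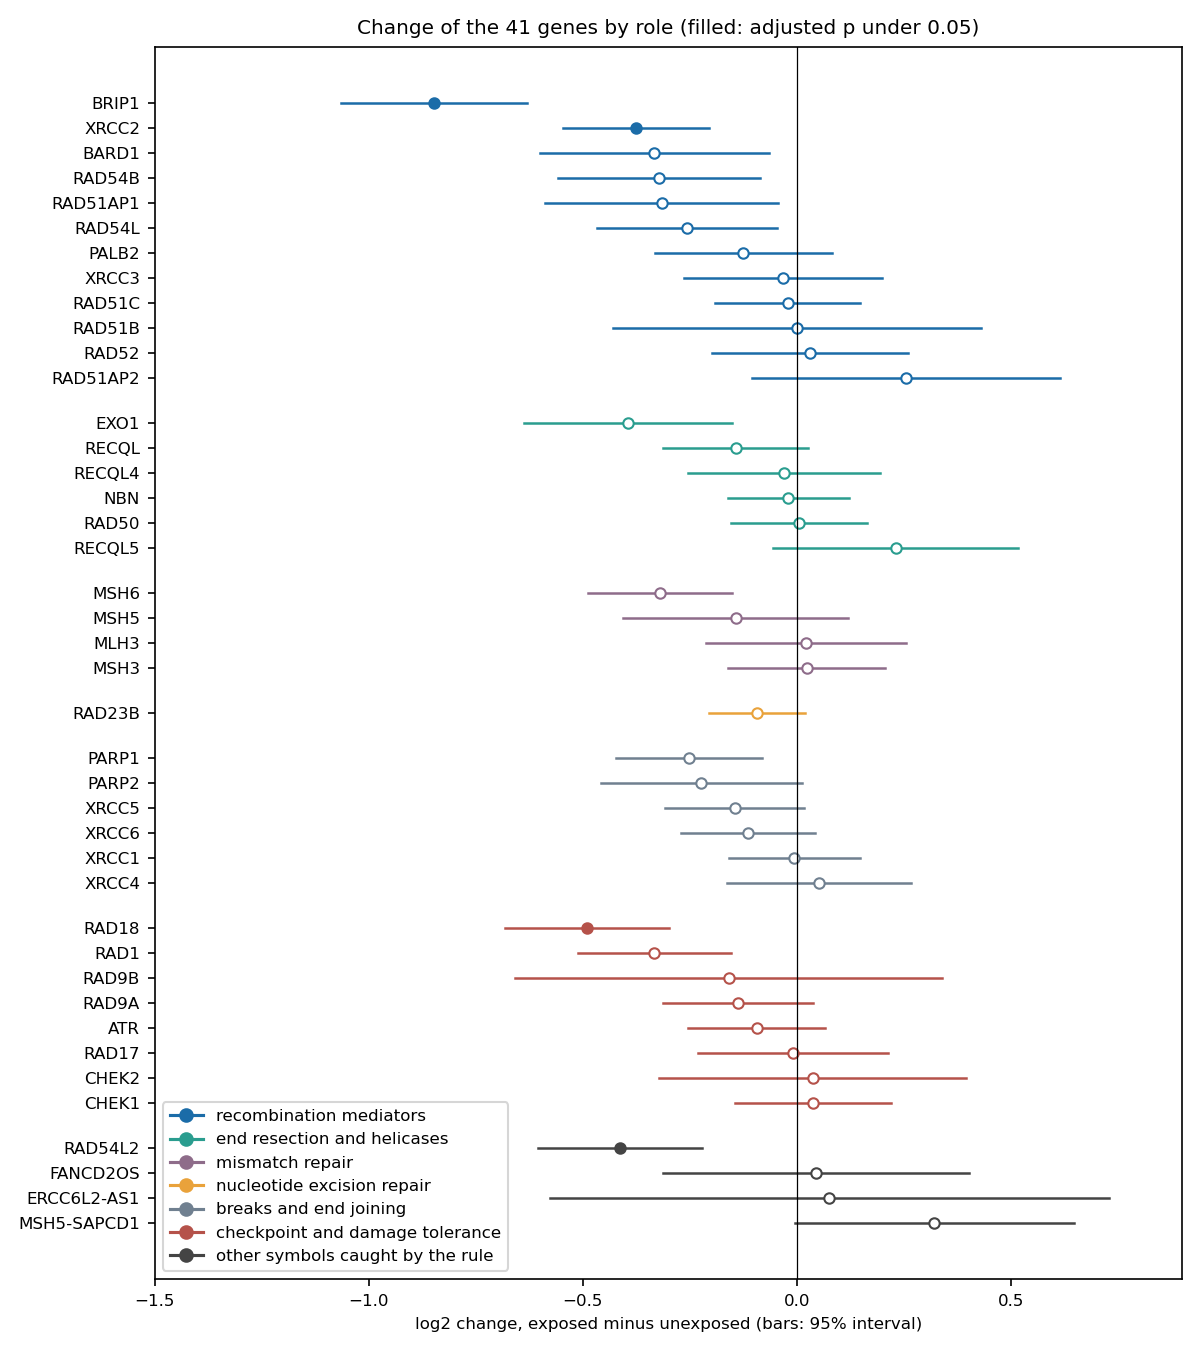
Log2 change (horizontal axis, exposed minus unexposed) of each of the 41 genes, in blocks by role, with 95% intervals from the fit as bars. Filled points passed an adjusted p of 0.05. BRIP1 lies apart at -0.85, and the points of the other genes lie between -0.49 (RAD18) and 0.32 (MSH5-SAPCD1).

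BRIP1, the FANCJ helicase that unwinds DNA at crosslinks and stalled forks, had the lowest change of all members. It stood at 7.08, 7.05 and 7.08 in exposed arrays, against 7.79, 8.11 and 7.86 in unexposed arrays (probe set 16847432). The exposed arrays lay within a narrow band, and the nearest unexposed array was far above it. The log2 change was -0.85 (SE 0.09, limma adjusted p = 0.0260, n = 3 each), with an interval of -1.06 to -0.63, so that the transcript was at 55.6% of its unexposed level. Among all 14884 genes this was the 18th lowest change. The call held without exposed replicate 3 and without unexposed replicate 1. It was lost when any of the other 4 arrays was left out, with adjusted p up to 0.120, while the change stayed between -0.91 and -0.75. In each of those 4 fits 0 of all 14884 genes were called.

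XRCC2, which acts in homologous recombination, stood at 7.47, 7.38 and 7.45 in exposed arrays, against 7.71, 7.83 and 7.90 in unexposed arrays (probe set 17064679). The groups did not overlap. Its change was -0.37 (SE 0.07, limma adjusted p = 0.0429, n = 3 each), or 77.1% of the unexposed level. This call was lost when any array was left out, with adjusted p up to 0.149 and changes of -0.43 to -0.33. Without exposed replicate 3 and unexposed replicate 1, 325 and 67 of all genes were called, and without any other array 0.

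RAD18, the ubiquitin ligase that marks the sliding clamp PCNA at stalled forks for translesion synthesis, stood at 7.94, 7.91 and 8.08 in exposed arrays, against 8.36, 8.60 and 8.43 in unexposed arrays (probe set 16950448). Here too the highest exposed array was below the lowest unexposed one. The change was -0.49 (SE 0.08, limma adjusted p = 0.0324, n = 3 each), or 71.2% of the unexposed level. It passed with exposed replicate 3 left out and with none of the other arrays left out, where changes lay between -0.54 and -0.42. Of all genes 325 were called without exposed replicate 3, 67 without unexposed replicate 1 and 0 without any other array.

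RAD54L2, the remodeller named above, stood at 7.48, 7.34 and 7.40 in exposed arrays, against 7.70, 7.82 and 7.94 in unexposed arrays (probe set 16941184). Its change was -0.41 (SE 0.08, limma adjusted p = 0.0442, n = 3 each), and the call was lost when any array was left out. Those fits called 0 to 325 of all genes. The recombination motors RAD54L and RAD54B, its relatives by sequence, had changes of -0.26 and -0.32 that did not pass.

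The promoter windows of the 3 repair genes that fell are shown because E2F factors and the CHR and CCAAT elements drive many S and G2 phase genes. Each is 300 bases of RefSeq sequence on GRCh38.p14, from 250 bases before to 50 bases after the annotated start, read on the gene's own strand. Capitals mark exact words, searched on both strands: TTTCCCGC, TTTGGCGC, TTTCGCGC and TTTGCCGC for E2F, TTTGAA and TTCGAA for CHR, and CCAAT.
BRIP1, chr17:61863479-61863778, minus strand: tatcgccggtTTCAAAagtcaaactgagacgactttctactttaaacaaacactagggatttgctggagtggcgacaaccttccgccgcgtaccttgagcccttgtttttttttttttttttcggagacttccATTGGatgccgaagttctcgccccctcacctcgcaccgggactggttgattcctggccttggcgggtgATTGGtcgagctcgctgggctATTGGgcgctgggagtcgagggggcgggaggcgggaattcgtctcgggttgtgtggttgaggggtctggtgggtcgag
RAD18, chr3:8963423-8963722, minus strand: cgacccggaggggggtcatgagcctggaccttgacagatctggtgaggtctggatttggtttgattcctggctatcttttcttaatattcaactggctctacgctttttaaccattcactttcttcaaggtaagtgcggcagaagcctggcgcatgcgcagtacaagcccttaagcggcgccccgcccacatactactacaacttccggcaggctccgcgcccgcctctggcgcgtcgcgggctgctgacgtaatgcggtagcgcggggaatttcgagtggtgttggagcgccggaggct
XRCC2, chr7:152676092-152676391, minus strand: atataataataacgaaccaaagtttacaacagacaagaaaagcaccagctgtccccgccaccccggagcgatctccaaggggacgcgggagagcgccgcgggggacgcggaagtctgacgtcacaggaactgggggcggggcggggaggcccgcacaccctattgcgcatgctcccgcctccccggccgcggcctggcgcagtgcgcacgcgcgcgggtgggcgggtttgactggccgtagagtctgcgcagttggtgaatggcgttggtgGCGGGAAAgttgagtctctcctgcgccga
BRIP1 held 3 CCAAT words, starting at -117, -49 and -28 from the annotated start, and 1 CHR word at -240. XRCC2 held 1 E2F word starting at base 22 of the transcript, and RAD18 held none of these words in its window. No match says only that these letters are absent from the window.

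Among 36 members with a RefSeq window, 5 held an E2F word: XRCC2, EXO1, MSH6, XRCC6 and MSH3. The first 4 of these were among the 13 of the 36 members in which every exposed array lay below every unexposed array. The other 2 elements were split the other way. A CHR word stood in 1 of these 13 members and in 6 of the other 23, and a CCAAT word in 6 and 15. A link between any of these words and the change was not tested. For EXO1, MSH3, MSH6 and XRCC6, 40 bases around the E2F word are shown to let the word and its setting be compared.
EXO1, chr1:241848192-241848231, plus strand: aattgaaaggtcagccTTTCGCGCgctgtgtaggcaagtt
MSH3, chr5:80654529-80654568, plus strand: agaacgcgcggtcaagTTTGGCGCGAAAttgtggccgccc
MSH6, chr2:47783132-47783171, plus strand: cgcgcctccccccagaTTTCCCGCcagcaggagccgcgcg
XRCC6, chr22:41621305-41621344, plus strand: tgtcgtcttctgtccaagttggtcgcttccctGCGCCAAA
In the MSH3 stretch 2 words overlap on opposite strands. Counted by window, an E2F word stood in 10.0% of 50 member windows in 4.11% of the windows of genes on the array and in 3.31% of all 35116 windows of the table. A CHR word stood in 14%, 13.5% and 16.4% of them, and a CCAAT word in 25 member windows, in 34.3% of the windows of genes on the array and in 34.6% of all windows. Some genes have several overlapping windows, and a match is a word in the sequence, not a measured binding site.

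**Figure D2:**
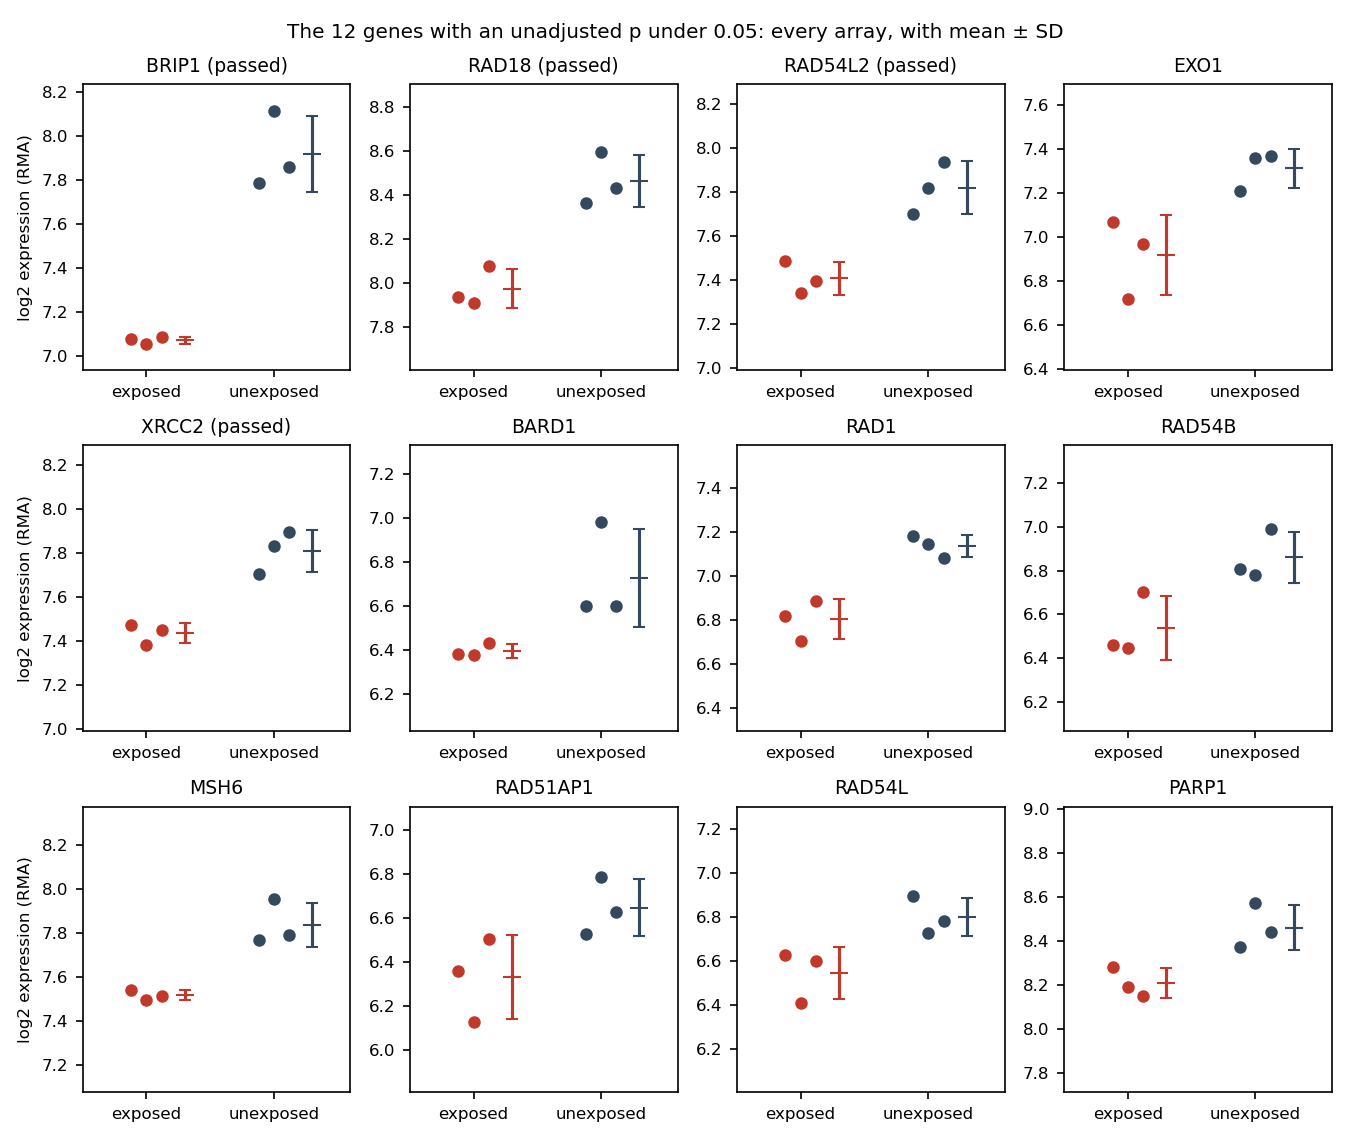
RMA log2 expression (vertical axes, each spanning 1.3 log2 units) on every array for the 12 genes with an unadjusted p under 0.05, exposed left of unexposed, with mean ± SD beside the points. In each of the 12 panels the 3 exposed arrays lie below the 3 unexposed arrays, with the widest gap in BRIP1.

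Of the 12 measured recombination mediators, genes that help strand invasion and exchange, 2 fell and 10 did not pass, where 1.67% of all genes fell. Their median change was -0.19, against 0.0029 over all genes. BARD1, a RING-domain subunit of a ubiquitin ligase in break repair, stood at 6.38, 6.37 and 6.43 in exposed arrays and at 6.60, 6.98 and 6.60 in unexposed arrays. Unexposed replicate 2 was the high one, and the change of -0.33 (limma adjusted p = 0.169) was -0.20 without it. RAD54B, a DNA-translocating motor protein of recombination, was at 6.46, 6.45 and 6.70 in exposed arrays and at 6.81, 6.78 and 6.99 in unexposed arrays. RAD51AP1, which stimulates strand exchange, had a change of -0.32 (limma adjusted p = 0.197). For BARD1, RAD54B, RAD51AP1 and RAD54L the groups did not overlap, and none of these 4 passed.

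RAD51C, XRCC3, PALB2 and RAD52 had smaller changes than BRIP1 and XRCC2, and their groups overlapped. RAD51C, which sits in a complex with XRCC2, was at -0.02 (95% interval -0.19 to 0.15). XRCC3, its partner in another complex, was at -0.03 (-0.26 to 0.20), and PALB2, which bridges recombination proteins at breaks, was at -0.12 (-0.33 to 0.08). RAD52, an annealing protein, was at 0.03 (-0.20 to 0.26). These intervals leave out a fall of the size of BRIP1, but whether the changes differed from that of XRCC2 was not tested. RAD51B and RAD51AP2 were dim, with means of 3.60 and 2.40 in exposed cells and 3.60 and 2.15 in unexposed cells, below the array medians. RAD51AP2, a relative of RAD51AP1, stood at 2.34, 2.49 and 2.39 in exposed arrays and at 1.92, 2.18 and 2.35 in unexposed arrays, and its change of 0.25 did not pass.

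Of the 6 measured members of end resection and helicase function 0 passed, where 3.06% of all genes did. At that share 0 of 6 does not set the role apart. RAD50, the long coiled-coil subunit of the end-binding nuclease complex, stood at 9.53, 9.62 and 9.63 in exposed arrays and at 9.46, 9.66 and 9.64 in unexposed arrays. It was level at 0.00 (-0.15 to 0.16). NBN, the subunit that recruits the ATM kinase, was at -0.02 (-0.16 to 0.12), and the nuclease MRE11, taken from outside the symbol rule, was at 0.03 (-0.27 to 0.33). DNA2, another resection nuclease from outside the rule, fell, with the values given among the recombination partners. EXO1, the exonuclease that extends resection and also serves mismatch repair, stood at 7.07, 6.72 and 6.97 in exposed arrays, against 7.21, 7.36 and 7.37 in unexposed arrays. The EXO1 groups did not overlap, exposed replicate 2 was the lowest, and the change of -0.39 (SE 0.10) did not pass (limma adjusted p = 0.0876). Among RecQ helicases, which unwind recombination intermediates, RECQL was at -0.14 and RECQL4 at -0.03. RECQL5, which restrains recombination, stood at 6.52, 6.49 and 6.27 in exposed arrays and at 6.43, 6.06 and 6.10 in unexposed arrays. Its groups overlapped, and at 0.23 (-0.05 to 0.52) it had the most positive value of its role without passing.

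In mismatch repair the values of the MutS subunits stood apart. MSH6, which recognises base mismatches and short loops, stood at 7.54, 7.50 and 7.52 in exposed arrays, against 7.77, 7.95 and 7.79 in unexposed arrays. All exposed arrays were lower, but the change of -0.32 (SE 0.07) did not pass (limma adjusted p = 0.0593). MSH3, the alternative subunit for larger loops, stood at 7.84, 7.76 and 7.72 in exposed arrays and at 7.79, 7.84 and 7.62 in unexposed arrays. Its groups overlapped, and it was at 0.02 (-0.16 to 0.21). The difference between the changes of MSH6 and MSH3 was not tested. MLH3, a MutL subunit also used in meiosis, was at 0.02. MSH5, a meiotic MutS gene, had probe sets at -0.14 and -0.30, whereas the readthrough MSH5-SAPCD1 had 4 probe sets with identical values at 0.32 (limma adjusted p = 0.271) and a further one at 0.32. On its main probe set the readthrough stood at 4.72, 4.37 and 4.73 in exposed arrays and at 4.26, 4.40 and 4.20 in unexposed arrays, so the groups overlapped. The MSH5 exons are part of the readthrough, so the signal of each is uncertain as to the transcript.

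Of the 6 measured break and end-joining genes 0 fell and 5 had negative values, where 1.67% and 49.3% of all genes did. PARP1, the sensor that decorates breaks with poly(ADP-ribose), stood at 8.28, 8.19 and 8.15 in exposed arrays, against 8.37, 8.57 and 8.44 in unexposed arrays. Its groups did not overlap, and the change of -0.25 (SE 0.07) did not pass (limma adjusted p = 0.114). PARP2, its relative, was at -0.22, and the Ku subunits XRCC5 and XRCC6 were at -0.15 and -0.11. XRCC1, the scaffold of single-strand break repair, stood at 10.4, 10.3 and 10.5 in exposed arrays and at 10.5, 10.3 and 10.4 in unexposed arrays, a change of -0.01 (-0.16 to 0.15). XRCC4, the scaffold of end ligation, stood at 7.11, 7.07 and 7.28 in exposed arrays and at 7.08, 7.23 and 7.00 in unexposed arrays, overlapping at a change of 0.05 (-0.16 to 0.27). RAD23B, which stabilises the damage sensor XPC in nucleotide excision repair, was the measured member of that pathway, at 10.15, 10.09 and 10.14 in exposed arrays and 10.20, 10.25 and 10.21 in unexposed arrays. Its small change of -0.09 (-0.20 to 0.02) did not pass, although its groups did not overlap.

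**Figure D3:**
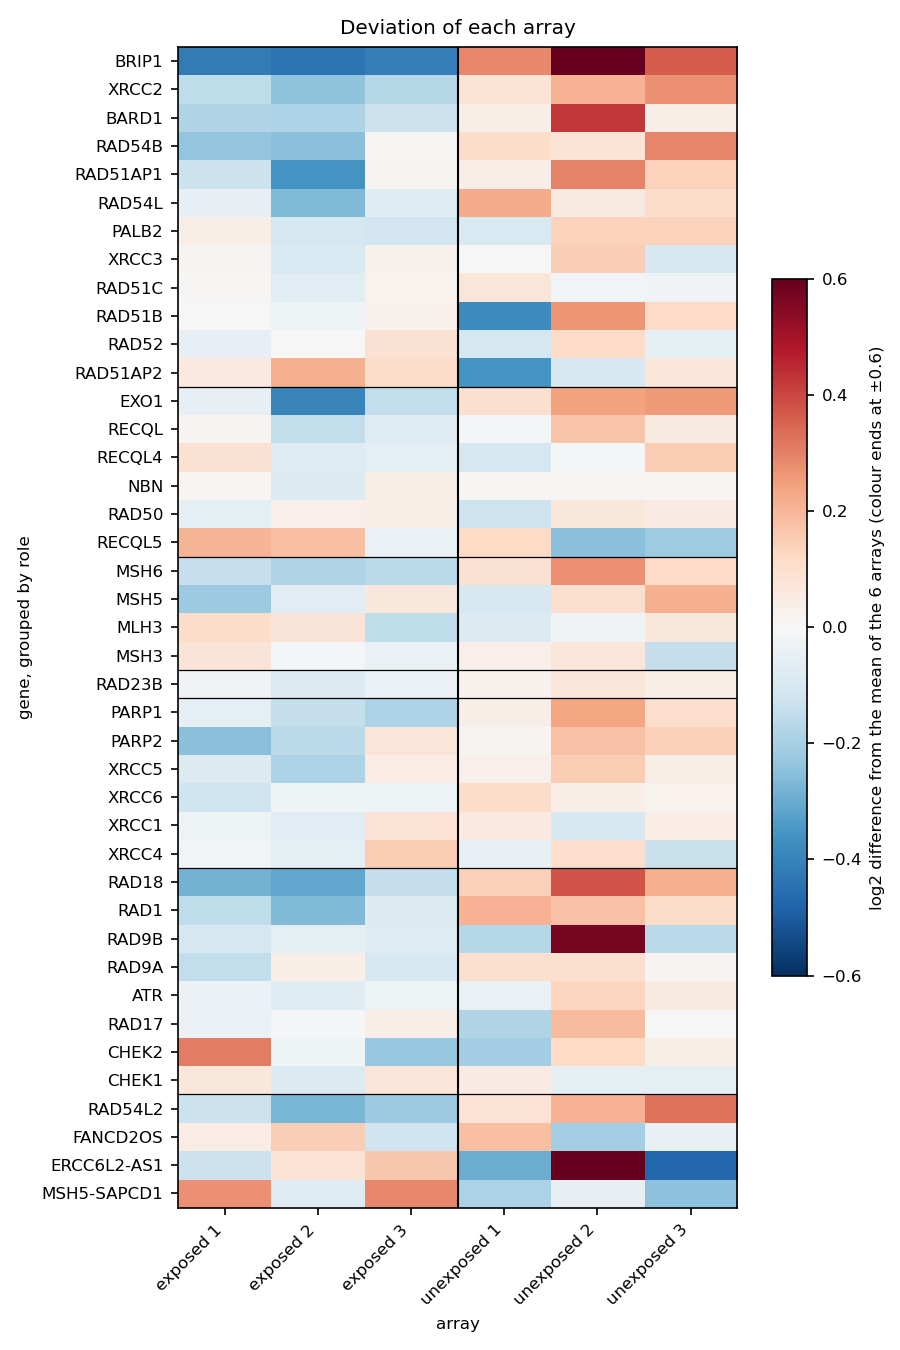
Difference of each array from the mean of the 6 arrays (colour, log2, ending at ±0.6) for the 41 genes by role, exposed arrays left of the line. BRIP1, XRCC2, MSH6 and RAD18 are below their mean in all 3 exposed arrays and above it in all 3 unexposed arrays, while NBN and RAD51C are nearly uniform.

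Among the 8 measured checkpoint and damage-tolerance genes RAD18 fell and 7 did not pass, where 1.67% of all genes fell. RAD1, a ring subunit of the checkpoint clamp, stood at 6.82, 6.71 and 6.89 in exposed arrays, against 7.18, 7.15 and 7.08 in unexposed arrays. Its groups did not overlap, and the change of -0.33 (SE 0.08) did not pass (limma adjusted p = 0.0642). RAD9A and HUS1, the other ring subunits, were at -0.14 and -0.03, and RAD17, which loads the ring, was at -0.01. The apical kinase ATR stood at 7.57, 7.53 and 7.57 in exposed arrays and at 7.57, 7.73 and 7.66 in unexposed arrays, a change of -0.09 (-0.25 to 0.07). CHEK1, the kinase that ATR activates, stood at 7.02, 6.87 and 7.02 in exposed arrays and at 7.00, 6.90 and 6.90 in unexposed arrays. Its groups overlapped, at a change of 0.04 (-0.14 to 0.22). CHEK2, the effector kinase downstream of ATM, was at 0.04 with a wider interval of -0.32 to 0.40, and at 0.12 where its probe sets were averaged. RAD9B was dim at 3.24 in exposed cells and 3.40 in unexposed cells. FANCD2OS and ERCC6L2-AS1, the opposite-strand and antisense genes, were at 0.04 and 0.08 and did not pass.

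Per array, the median deviation of the 41 members from their own 6-array means was -0.05, -0.08 and -0.04 in exposed arrays and 0.03, 0.12 and 0.05 in unexposed arrays. Unexposed replicate 2, which also lay farthest out over all probe sets, was thus the highest. Without it the median change of the members was -0.06. Exposed replicate 2 was the lowest array in all 4 members that fell. By Pearson correlation over the 6 arrays among 10677 genes above the median of all probe sets, the values most like BRIP1 were those of LINC01963 (0.997), KIFC3 (0.997), PXN (0.997), SLFN5 (0.997) and CCND1 (0.996). MSH6 had a correlation of 0.991 with BRIP1, RAD18 one of 0.982, PALB2 0.661 and CHEK1 -0.35. These coefficients rest on 6 arrays in 2 groups, so that any gene that differs between the groups scores high.

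Beyond the symbol rule, 75 of 121 listed repair and checkpoint genes were measured. Of these 7 fell and 2 rose, where 1.67% and 1.40% of all genes did, and 66 did not pass. Their median change was -0.10. In 27 of them every exposed array lay below every unexposed array (36.0%, against 13.8% of all genes). In 9 every exposed array lay above, where all genes gave 13.2%. With 1 array left out, whichever it was, 0 to 4 of these genes fell and 0 rose. Those fits called 0 to 325 of all genes in either direction. All 9 changes kept their sign there.

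The partners of the Fanconi pathway held changes in both directions. Of 9 measured 3 fell, against 1.67% of all genes: UBE2T, USP1 and UHRF1. UBE2T, the conjugating enzyme that supplies ubiquitin to the Fanconi ligase, stood at 8.04, 7.90 and 8.16 in exposed arrays, against 8.41, 8.72 and 8.55 in unexposed arrays. Its change was -0.53 (SE 0.10, limma adjusted p = 0.0396). USP1, the protease that takes that ubiquitin off again, stood at 8.99, 8.81 and 9.06 in exposed arrays, against 9.36, 9.56 and 9.42 in unexposed arrays, a change of -0.50 (SE 0.08, limma adjusted p = 0.0329). Transcripts of the enzyme that supplies this ubiquitin and of the one that removes it were thus both lower in every exposed array. WDR48, the activating subunit of USP1, was at 0.11 (-0.05 to 0.27), and SLX4 (-0.17), FAAP24 (-0.14) and CENPX (0.02) did not pass. UHRF1, which recognises crosslinks and hemimethylated DNA, changed by -0.28 (SE 0.06, limma adjusted p = 0.0442). FAN1, a nuclease that cuts at crosslinks, rose, at 6.71, 6.53 and 6.50 in exposed arrays against 6.14, 6.06 and 6.10 in unexposed arrays. That was a change of 0.48 (SE 0.09, limma adjusted p = 0.0364), or 1.39-fold.

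**Figure D4:**
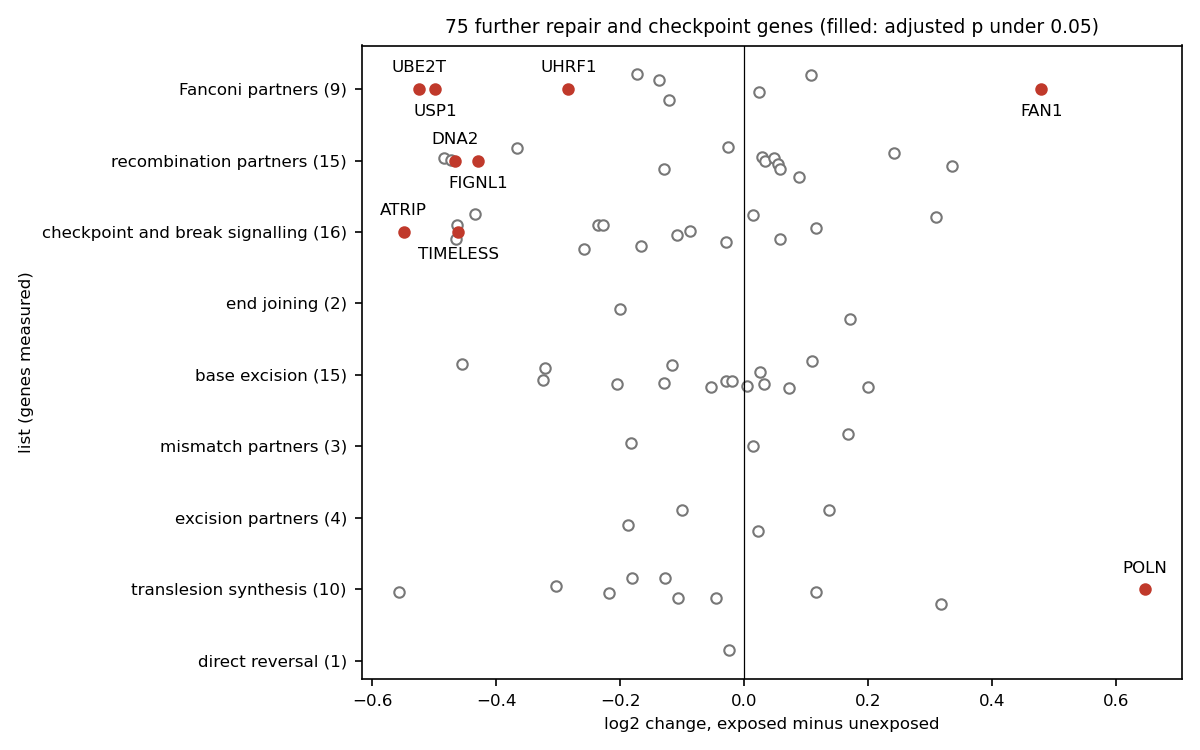
Log2 change (horizontal axis, exposed minus unexposed) of 75 further repair and checkpoint genes by list, with the number measured in parentheses; points are spread vertically within a list for legibility only. Filled and named points passed an adjusted p of 0.05, 7 of them to the left of 0 and FAN1 and POLN to the right.

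Of 15 measured recombination partners 2 fell, against 1.67% of all genes, and the median change of the 15 was 0.03. DNA2, a nuclease and helicase of long-range resection, had a change of -0.47 (SE 0.09, limma adjusted p = 0.0374), and FIGNL1, an ATPase of recombination, one of -0.43 (SE 0.08, limma adjusted p = 0.0420). The resolvase GEN1 and the recombination cofactor PSMC3IP were at -0.48 and -0.47 and did not pass. HELB (0.33) and SWI5 (0.24) had the smallest p among positive values and did not pass either. Of 16 checkpoint and break signalling genes 2 fell as well, against the same 1.67%. ATRIP, the obligate partner of ATR, stood at 6.05, 6.19 and 6.20 in exposed arrays, against 6.64, 6.78 and 6.67 in unexposed arrays. Its change was -0.55 (SE 0.08, limma adjusted p = 0.0298), while ATR itself was at -0.09. TIMELESS, a fork protection factor, changed by -0.46 (SE 0.08, limma adjusted p = 0.0336), and its partner TIPIN was at -0.43 without passing. The phosphatases CDC25A and CDC25C, which switch on cyclin-dependent kinases, were at -0.47 and -0.46 and did not pass. TP53BP1, which shields broken ends from resection, was at 0.31 and BABAM2 at 0.11, neither of which passed.

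Of 10 measured translesion genes POLN rose and 9 did not pass, where 1.40% of all genes rose. POLN, a DNA polymerase that tolerates damaged templates, stood at 5.40, 5.49 and 5.43 in exposed arrays, against 4.80, 4.60 and 4.99 in unexposed arrays. Its change was 0.65 (SE 0.12, limma adjusted p = 0.0394), or 1.56-fold. MAD2L2, a subunit shared by translesion polymerase and end protection complexes, was at -0.56 and did not pass (limma adjusted p = 0.0564). The PCNA conjugating enzyme UBE2A, which works with RAD18, was at -0.13, and RFWD3 and POLK were at -0.30 and 0.32, UBE2B at 0.12. The POLK value rests on the probe set chosen, since the mean of its probe sets changed by 0.0084. Of 15 measured base excision genes 0 passed, where 3.06% of all genes did. At that share 0 of 15 does not set the list apart. TDP1 (-0.32), NEIL3 (-0.32), SMUG1 (0.20) and MBD4 (0.11) had the smallest p in each direction. Of the 2 end-joining, 3 mismatch and 4 excision genes measured 0 passed, against the same 3.06%. Their changes lay between -0.20 (DCLRE1C) and 0.17 (PMS2 and APLF). Between them lay UVSSA (-0.19), MCM9 (-0.18), CCNH (-0.10), PMS1 (0.01), CDK7 (0.02) and XAB2 (0.14). MGMT, which removes alkyl groups from guanine, was at 4.27, 4.65 and 4.83 in exposed arrays and 4.66, 4.63 and 4.53 in unexposed arrays. Its groups overlapped, at -0.03 (-0.39 to 0.34).

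Cell cycle regulators read on the same arrays moved beside these genes. The transcription factors MYBL2 and E2F1 changed by -1.03 and -0.38, and the cyclin gene CCNE2 by -0.76, all past the threshold. PCNA was at -0.18 and did not pass. Among p53 target genes EDA2R and GDF15 rose by 0.76 and 0.91, and SESN1 was at 0.25 without passing. Of markers of other cell types, the neuronal MAP2 rose by 0.91 and the fibroblast gene LUM by 0.83. The other neuronal marker measured, SYT1, was at 0.02 and the other fibroblast marker, DCN, at 0.28. Neither of them passed, and both group means of DCN were under the array medians. The 3 endothelial, 3 microglial, 4 oligodendrocyte and 3 astrocyte genes measured did not pass either. Whether any of these moved the repair genes was not tested.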

How the data were processed

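RNA of 6 samples was read on 1-colour Affymetrix arrays. The authors deposited log2 values, 1 for each probe set on each array, made by RMA in Affymetrix Expression Console 3.0 and Transcriptome Analysis Console 3.0 per the submitters' processing notes. Other settings and the genome build are not given in the sources used. The table holds 53617 probe sets, and the platform annotation gives 16098 of them a single symbol (14884 symbols). It has no detection calls, and precision is limited by the number of arrays. RMA makes arrays alike, so a change in total RNA per cell would not be visible.

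Groups were taken from the sample titles; the description of the exposed samples calls them both exposed and control. Differences, exposed minus unexposed, were fitted with limma 3.58.1 in R 4.3.3 (lmFit and eBayes, trended prior variance, two-sided test, no covariate, no filter) on all probe sets, and p-values were adjusted by Benjamini-Hochberg over 1 probe set per gene. SE and 95% intervals come from that fit. The procedure was tested on simulated arrays. Figures used matplotlib 3.10.9.

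The members and lists were chosen with earlier results of these data known. Every array is given for members past the threshold, for the smallest p in each direction per role, and for some further members chosen after their values were seen. Of the repair lists, genes past the threshold and the 2 with the smallest p in each direction were named; their partners and the members of protein complexes were added after their values were seen. Alternatives were the variance model, a filter on dim probe sets, normalization and centring, the probe set per gene, the features adjusted over, the replicate number as a block and each array left out. Same-numbered arrays of the 2 groups did not deviate together (correlations of their deviations -0.02, -0.03 and 0.01), so numbers were not taken as pairs.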

Additional observations from a re-analysis of the deposited data

How the results depend on the processing

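Among the 41 members, the number that fell was 4 in the report and again with quantile normalization repeated, 3 with arrays centred on their medians, 6 among the brighter probe sets, above the median (37 members tested), 7 where probe sets of a gene were averaged and 7 in a fit on 1 probe set per gene, which was chosen after seeing the data. It was 2 with arrays centred on 52 ribosomal protein genes, 1 adjusted over all probe sets, and 0 with an untrended prior variance, with unmoderated variances and with a replicate block, and with each array left out in turn 0 to 2. Where it was 0, limma gave 10 to 12 members an unadjusted p under 0.05 downward. MSH6 and RAD1 joined the members that fell among the brighter probe sets, and EXO1, MSH6 and RAD1 joined them in the settings with 7. The number of all genes called in either direction moved with the member counts. It was 456 in the report, 521 with quantile normalization repeated, 401 with median centring, 753 among the brighter probe sets, 1173 where probe sets were averaged, 1209 in the fit on 1 probe set per gene, 308 with ribosomal centring and 162 adjusted over all probe sets. It was 0 with an untrended prior variance or a replicate block, 4 with unmoderated variances and 0 to 325 with an array left out. The number of members that rose was 0 in every setting run. Among the 75 other repair genes, the number that fell was 7 in the report, 19 where probe sets were averaged, 19 in the fit on 1 probe set per gene, 11 among the brighter probe sets, 3 with ribosomal centring, 1 adjusted over all probe sets, 0 without a trend, without moderation or with a replicate block, and 0 to 4 with an array left out. The number that rose there was 2, and 0 adjusted over all probe sets, without a trend, without moderation, with a replicate block and with any array left out. The cause was not tested. The median change of the members was -0.015 with ribosomal centring, a setting that moved the median of all genes to 0.082, and -0.12 to -0.055 with an array left out. Under the replicate block the change of BRIP1 was -0.85 (limma adjusted p = 0.127).

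Signs turned for genes near 0. Ribosomal centring put NBN at 0.060, RAD17 at 0.071, RAD51C at 0.058, RECQL4 at 0.049, XRCC1 at 0.074, XRCC3 at 0.047, MGMT at 0.054. Median centring put RAD50 at -0.00719, RAD51B at -0.011. Repeated quantile normalization put NBN at 0.0189, RAD17 at 0.021, RAD51B at -0.012, RAD51C at 0.010, XRCC1 at 0.017. With 1 array left out the lowest and highest changes were -0.11 and 0.16 for CHEK2, -0.14 and 0.42 for ERCC6L2-AS1, -0.046 and 0.15 for FANCD2OS, -0.15 and 0.13 for MGMT, -0.027 and 0.10 for MLH3, -0.042 and 0.067 for MSH3. They were -0.044 and 0.016 for NBN, -0.063 and 0.15 for PMS1, -0.10 and 0.083 for RAD17, -0.057 and 0.040 for RAD50, -0.19 and 0.13 for RAD51B, -0.038 and 0.0087 for RAD51C. They were -0.015 and 0.095 for RAD52, -0.28 and 0.085 for RAD9B, -0.089 and 0.039 for RECQL4, -0.055 and 0.026 for XRCC1, -0.088 and 0.033 for XRCC3, -0.012 and 0.12 for XRCC4.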
